A study of Mus musculus with 6 samples.

Results

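The genes described here make, activate, transport, modify and remove sialic acid: Gne, Nans, Cmas, Slc35a1, Cmah, Npl, Neu1, Neu2 and Neu3. They were chosen by name, and each was found through the RefSeq accession in the name of its probe set. All 9 of the 9 listed genes had a probe set, out of 909 named genes on 1246 probe sets, and each had 1 probe set, so no choice between probe sets arose. The probe sets of Cmah and Neu2 carry the suffix s, which marks probes that can bind several transcripts.

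The samples were RNA of MLE-15, each read on 1 of 6 Affymetrix arrays. MLE-15 is an epithelial cell line from mouse lung that SV40 large T antigen keeps dividing. The 3 PMA arrays were of cells given PMA, a phorbol ester used to switch on protein kinase C, at 10 nM for 24 h, as the series design text states. The 3 control arrays were of the same line without PMA. Each group has replicate numbers 1, 2 and 3. The short names in the sample titles end in A for number 2 and B for number 3, and have no letter for number 1. What a letter or a shared number means, and whether replicates were separate cultures, is not in the labels. The p-values here therefore cover only the spread between these 6 arrays, and that spread may be technical.

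Sialic acids are acidic sugars at the ends of the glycans on mucins, other glycoproteins and gangliosides, and airway epithelium displays them as part of its mucus and cell surface. Gne and then Nans build the sugar from UDP-GlcNAc in the cytosol, Cmas joins it to CMP in the nucleus, and Slc35a1 carries CMP-sialic acid into the Golgi, where sialyltransferases use it. Cmah converts the CMP-linked N-acetyl form to the N-glycolyl form, Npl cleaves free sialic acid, and the sialidases Neu1, Neu2 and Neu3 take it off glycans again.

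Each level is a log2 RMA value, a background-corrected and quantile-normalized signal of a probe set, so a difference of 1 is a doubling of measured signal. Medians of the 6 arrays lay between 5.64 and 5.71 and their lower quartiles between 4.32 and 4.43. Npl and Neu3 lay below the lower quartile on all 6 arrays, and no gene was called present or absent. Levels of different genes were not ranked, since probe sets differ in brightness at 1 amount of RNA. Arrays of number 1 stood apart from the other 4 in both groups. The 2 measured lung epithelial markers of 11 listed, Sftpa1 and Sftpd, are surfactant proteins. Their values ran from 3.29 to 5.50. Sftpa1 lay below the lower quartile and Sftpd below the median on all 6 arrays. The other 9 epithelial markers were not measured here. The labelled cell type could therefore be checked only on these genes, and their low signals do not settle it.

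The first question, taken from the series design, was what PMA induces, and none of the 9 genes passed a test between PMA and control arrays. Gne, the epimerase and kinase that commits UDP-GlcNAc to sialic acid, had values of 7.74, 7.29 and 7.42 in PMA arrays 1, 2 and 3, against 7.63, 7.36 and 7.46 in control arrays 1, 2 and 3. The mean was 7.49 ± 0.23 with PMA and 7.48 ± 0.14 in control (SD, n = 3 each). Both groups were highest in number 1, and they overlapped. Nans, the synthase that forms sialic acid phosphate, had values of 8.17, 7.90 and 7.92 in PMA arrays, against 8.42, 7.91 and 8.0 in control arrays. Its PMA value was the lower in all 3 numbers, by -0.25, -0.0048 and -0.077 log2 units, and the mean difference of -0.11 (SE 0.16) was the furthest from 0 of the 9 genes.

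Cmas, the CMP-sialic acid synthetase, had values of 9.63, 10.55 and 10.75 in PMA arrays, against 9.68, 10.74 and 10.80 in control arrays. The PMA value was again the lower in each number, by -0.054, -0.19 and -0.048, while the groups overlapped because number 1 was low in both. Slc35a1, the transporter of CMP-sialic acid, had values of 9.44, 8.99 and 8.95 in PMA arrays, against 9.45, 8.92 and 9.07 in control arrays. Its within-number differences, -0.0093, 0.066 and -0.12, did not share a sign.

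Cmah, the hydroxylase that makes the N-glycolyl form and is inactive in humans, had values of 6.35, 4.27 and 4.42 in PMA arrays, against 6.33, 4.38 and 4.14 in control arrays. Numbers 2 and 3 lay near the lower quartile of the arrays and number 1 well above it, in both groups. The within-number differences were 0.018, -0.12 and 0.28. Npl, the lyase that splits sialic acid into N-acetylmannosamine and pyruvate, had values of 4.20, 3.50 and 3.49 in PMA arrays, against 4.07, 3.46 and 3.41 in control arrays. The PMA value was the higher in each number, by 0.13, 0.036 and 0.088.

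Neu1, the lysosomal sialidase, had values of 9.02, 9.39 and 9.30 in PMA arrays, against 9.17, 9.29 and 9.36 in control arrays, and number 1 was the lowest of each group. Neu2, the cytosolic sialidase, had values of 5.37, 4.99 and 5.04 in PMA arrays, against 5.11, 5.16 and 4.93 in control arrays. Its within-number differences were 0.25, -0.17 and 0.12, so the sign turned with the number. Neu3, the plasma membrane sialidase that acts on gangliosides, had values of 3.98, 3.80 and 3.87 in PMA arrays, against 3.88, 3.74 and 3.81 in control arrays. It was higher with PMA in all 3 numbers, by 0.10, 0.068 and 0.057, a mean difference of 0.075 (SE 0.076).

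**Figure D1:**
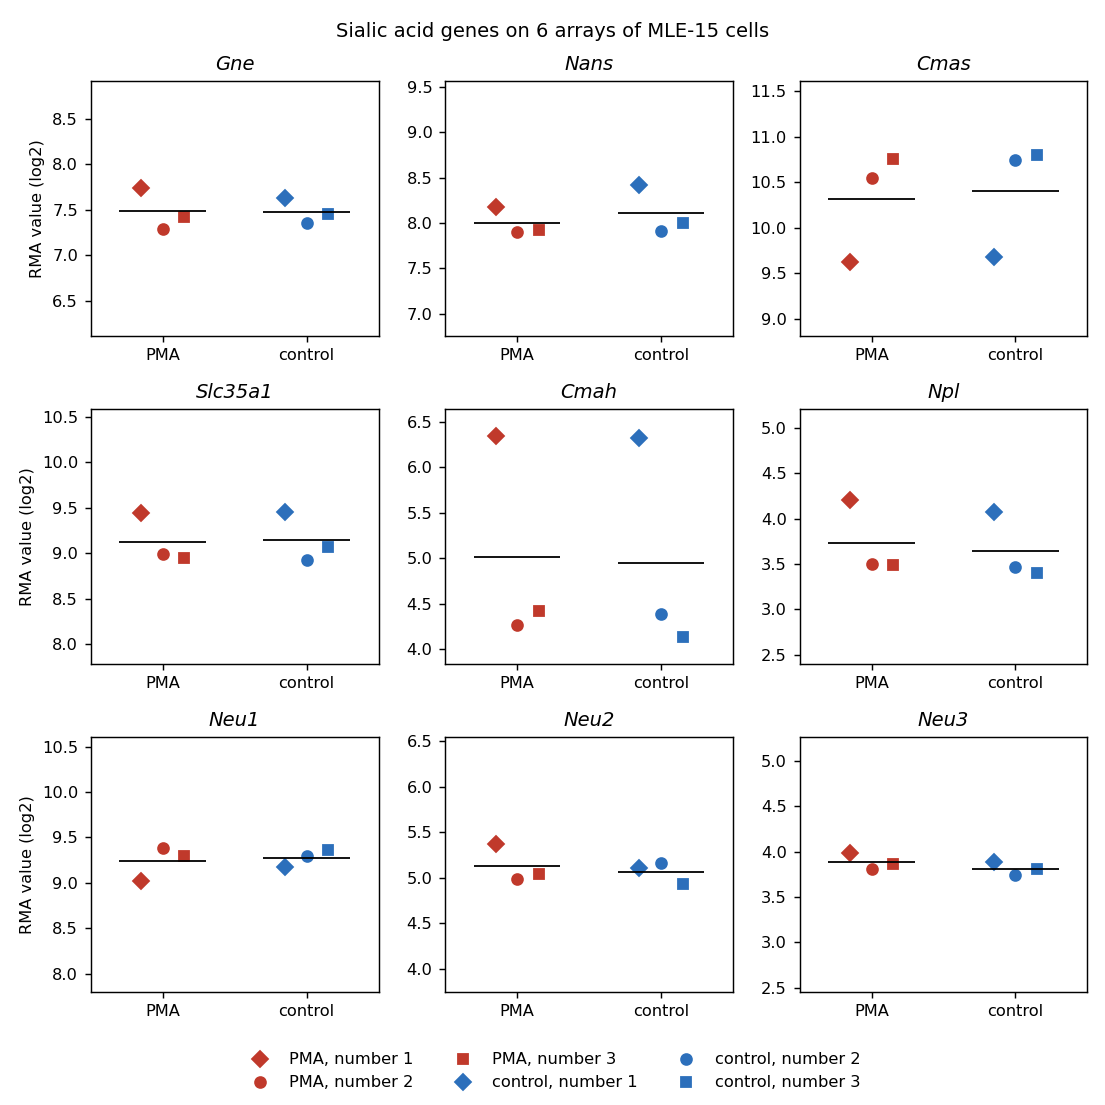
RMA values (log2) of the 9 genes, 1 panel a gene, with PMA arrays in red at the left and control arrays in blue at the right. Marker shape gives the replicate number and the line the group mean; each panel spans 2.8 log2 units. The number 1 arrays (diamonds) lie above the rest for Cmah, at 6.35 and 6.33, and below it for Cmas, at 9.63 and 9.68.

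By limma with Benjamini-Hochberg adjustment over all probe sets, 0 of the 9 genes passed the threshold of 0.05, with an adjusted p = 0.999 for each, and 0 had an unadjusted p under 0.05. Over all 1246 probe sets 0% passed and 0.321% had such an unadjusted p. Once the replicate number entered as a block, limma also called 0 of 9, and the smallest unadjusted p of a gene was 0.165, for Nans. Again 0% of probe sets passed, with 3.37% under 0.05 before adjustment. Without number 1 in either group limma called 0 of 9 as well. The mean was higher with PMA for 5 genes and lower for 4, with a median difference of 0.0065, against 0.0033 over all probe sets. All 3 within-number differences had 1 sign for 4 of the 9 genes, Nans and Cmas downward and Npl and Neu3 upward. That was so for 23.1% of all probe sets. PMA and control arrays overlapped for all 9 genes, and they did not overlap for 3.37% of probe sets.

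Once the number was a term, which it was not in the main fit, the intervals of the PMA difference on these arrays were narrow. The spread behind them may be technical, so they do not bound a PMA effect between cultures. In the blocked fit the 95% intervals of the 9 genes lay between -0.27 and 0.27 log2 units, so the widest bound was a 1.21-fold difference. Gne had an interval of -0.15 to 0.16, Slc35a1 of -0.18 to 0.13 and Cmah of -0.13 to 0.25. Without the block the intervals were wider for genes that number 1 moved, at -2.0 to 2.12 for Cmah and -1.18 to 0.98 for Cmas. Where a single term for number 1 replaced the block, the Cmah interval was -0.12 to 0.24. These intervals cover the measured signal, whose response to RNA amount is unknown for dim probe sets such as those of Npl, Neu3 and, in numbers 2 and 3, Cmah.

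**Figure D2:**
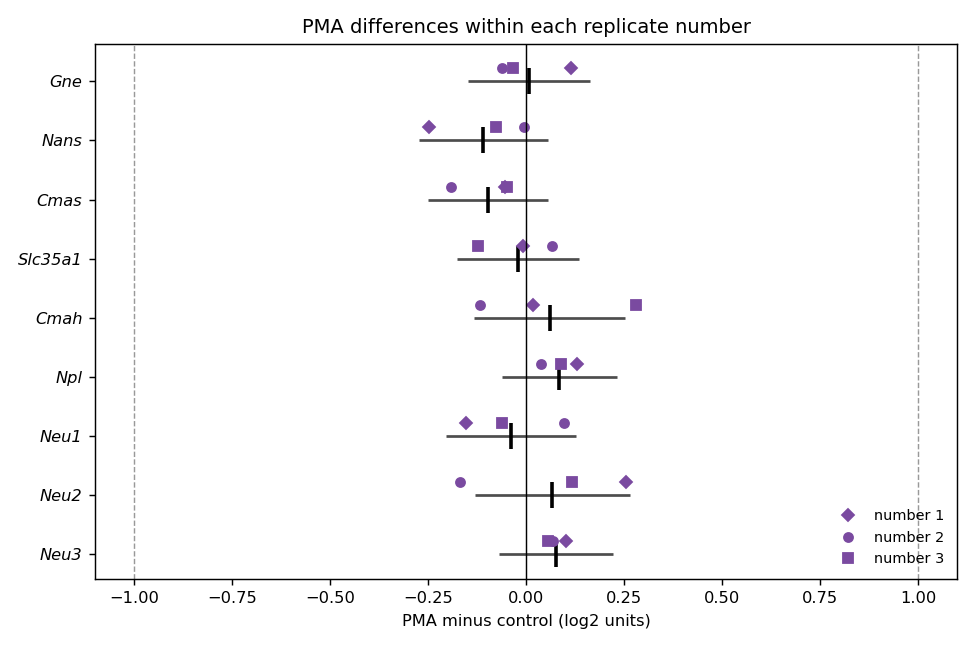
PMA minus control (log2 units) for each gene. Purple markers are the differences within numbers 1, 2 and 3, the vertical tick is their mean and the grey line its 95% interval in the blocked limma fit; dashed lines mark a doubling and a halving. All intervals include 0 and lie between -0.27 and 0.27.

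Whether the PMA difference in number 1 differed from that in numbers 2 and 3 was tested as an interaction. Number 1 has 1 PMA and 1 control array, so the spread in this fit came only from numbers 2 and 3. By limma 0 of the 9 genes passed, 0 had an unadjusted p under 0.05. Of all probe sets 0.0803% passed and 5.62% had such an unadjusted p. Neu2 had the largest interaction at 0.28 (SE 0.16, adjusted p = 0.770), and Nans had -0.21 (SE 0.13).

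PMA activates the transcription factor AP-1 in many cells, so the stretches upstream of the genes were read for its motif. RefSeq windows of GRCm38.p6 were available for 8 of the 9 genes, 12 windows in all because some genes have several starts, and the 250 bases before each start were used. Nans had none. The AP-1 motif TGANTCA, on either strand, stood in 2 of the 12 windows, 1 of Neu1 and 1 of the 3 of Neu2, and in 6.75% of all 32851 windows of that length. Both windows are shown because no other of the 12 held these letters. Capitals mark motif matches, here TGAGTCA, 148 bases before the Neu1 start and 13 bases before the Neu2 start, and a GC box (GGGCGG, printed as CCGCCC on this strand) in the Neu1 window.
Neu1, chr17:34931003-34931252, plus strand: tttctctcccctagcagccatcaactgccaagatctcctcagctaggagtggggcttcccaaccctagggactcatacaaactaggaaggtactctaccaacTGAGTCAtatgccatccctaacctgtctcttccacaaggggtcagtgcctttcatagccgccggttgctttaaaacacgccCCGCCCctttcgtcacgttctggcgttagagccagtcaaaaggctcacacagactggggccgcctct
Neu2, chr1:87594300-87594549, plus strand: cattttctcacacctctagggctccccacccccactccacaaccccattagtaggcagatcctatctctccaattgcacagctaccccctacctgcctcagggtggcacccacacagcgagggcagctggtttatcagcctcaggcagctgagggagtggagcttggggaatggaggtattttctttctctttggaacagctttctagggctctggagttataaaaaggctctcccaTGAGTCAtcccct
Neither gene passed the PMA test. Neu1 differed by -0.039 (SE 0.12) and Neu2 by 0.067 (SE 0.13) log2 units. Which of the 3 Neu2 starts is used in MLE-15 cells is not known from arrays.

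The second comparison set the number 1 arrays against those of numbers 2 and 3, with PMA as a term, and there most of the 9 genes differed. By limma with Benjamini-Hochberg adjustment over all probe sets 7 of 9 passed, 5 higher in number 1 (Cmah, Npl, Slc35a1, Nans and Gne) and 2 lower (Cmas and Neu1). Over all probe sets 41.7% passed, 27.5% higher and 14.1% lower, and 45.0% of the 909 named genes passed. Number 1 therefore differed broadly over these 1246 probe sets, which do not cover all genes, and not only in this pathway. Of the called probe sets 66.1% were higher in number 1, and 54.5% (278 higher, 232 lower) once the deposited values were quantile-normalized again. The median difference of the 9 genes was 0.30 log2 units, against 0.079 over all probe sets, and the median absolute difference was 0.36 against 0.17. Number stands here for 1 pair of arrays against 2 pairs, so the p-values compare these arrays only. The split was proposed after number 1 had been seen to stand apart, so the p-values are no independent evidence for it.

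Cmah had the largest difference of the 9. Its mean was 6.34 on the number 1 arrays and 4.30 on the other 4, higher by 2.03 log2 units (SE 0.086, adjusted p = 1.86e-08), a 4.10-fold difference in measured signal. The 4 other arrays lay at or near the lower quartile, where signal over background is unknown. By absolute difference it ranked 38 among the 1246 probe sets. The difference was 2.00 within PMA arrays and 2.07 within control arrays. Cmas, which supplies the CMP-sialic acid that Cmah modifies, went the other way. It averaged 9.65 in number 1 and 10.71 in the others, a difference of -1.06 (SE 0.077, adjusted p = 1.21e-06), or 2.08-fold lower, and it ranked 109. Within PMA arrays it differed by -1.02 and within control arrays by -1.09.

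The upstream stretches of these genes are shown because they had the largest differences with number, in opposite directions. Both are the windows at the start of the RefSeq gene; Cmah has another start further along the chromosome. No capitals appear, since neither window held the AP-1 motif, the CRE (TGACGTCA), the GC box GGGCGG or the E-box CACGTG, searched on both strands.
Cmah, chr13:24327154-24327403, plus strand: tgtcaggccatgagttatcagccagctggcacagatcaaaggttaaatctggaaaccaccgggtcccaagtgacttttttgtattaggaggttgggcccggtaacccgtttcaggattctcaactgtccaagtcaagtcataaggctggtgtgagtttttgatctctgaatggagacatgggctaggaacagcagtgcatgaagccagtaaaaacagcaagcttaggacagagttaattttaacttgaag
Cmas, chr6:142756436-142756685, plus strand: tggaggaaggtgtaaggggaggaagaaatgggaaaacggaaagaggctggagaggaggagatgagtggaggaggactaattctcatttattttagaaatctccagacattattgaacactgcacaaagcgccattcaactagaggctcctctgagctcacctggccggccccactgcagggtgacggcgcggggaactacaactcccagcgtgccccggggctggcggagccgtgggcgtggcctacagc
In all windows of that length the shares were 1.55% for the CRE, 32.7% for the GC box and 6.02% for the E-box. The share of G and C was 45.6% upstream of Cmah and 56.8% upstream of Cmas, with a median of 52.4% over all windows. Among the other genes the GC box stood in 1 window each of Slc35a1, Neu1 and Neu3 and the E-box in that of Npl.

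Npl averaged 4.14 in number 1 and 3.47 in the others, higher by 0.67 (SE 0.066, adjusted p = 1.31e-05). Its level was below the lower quartile of the arrays on both sides. Slc35a1 averaged 9.45 in number 1 and 8.98 in the others, higher by 0.47 (SE 0.071, adjusted p = 0.000313), with 0.47 within PMA arrays and 0.46 within control arrays. The transporter and the synthetase before it, Cmas, therefore differed in opposite directions in the same arrays.

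Nans averaged 8.30 in number 1 and 7.93 in the others, a difference of 0.36 (SE 0.075, adjusted p = 0.00242). Gne averaged 7.68 in number 1 and 7.38 in the others, a difference of 0.30 (SE 0.077, adjusted p = 0.00870). The signals of Nans and Gne were thus both higher in number 1, by 1.29-fold and 1.23-fold. Nans depended on control array 1, with 0.26 (adjusted p = 0.0711) without it. Gne depended on PMA array 1, with 0.22 (adjusted p = 0.148) without it, and after a repeated quantile normalization it had 0.23 (adjusted p = 0.0512). That normalization also took Nans to 0.20 and Slc35a1 to 0.27, both still called.

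Of the sialidases only Neu1 passed. It averaged 9.10 in number 1 and 9.34 in the others, a difference of -0.24 (SE 0.073, adjusted p = 0.0228), with -0.32 within PMA arrays and -0.15 within control arrays. Without PMA array 1 it was -0.15 (adjusted p = 0.279) and without control array 3 it was -0.24 (adjusted p = 0.0541), while quantile normalization again gave -0.44. Neu2 averaged 5.24 in number 1 and 5.03 in the others, a difference of 0.21 (95% interval 0.0071 to 0.41, adjusted p = 0.0917), and control array 1 lay among the other arrays. Without control array 2 it passed, at 0.28 (adjusted p = 0.0251), and without PMA array 1 it was 0.069 (adjusted p = 0.714). Neu3 averaged 3.93 in number 1 and 3.80 in the others, a difference of 0.13 (95% interval -0.024 to 0.28), and quantile normalization again gave 0.017.

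**Figure D3:**
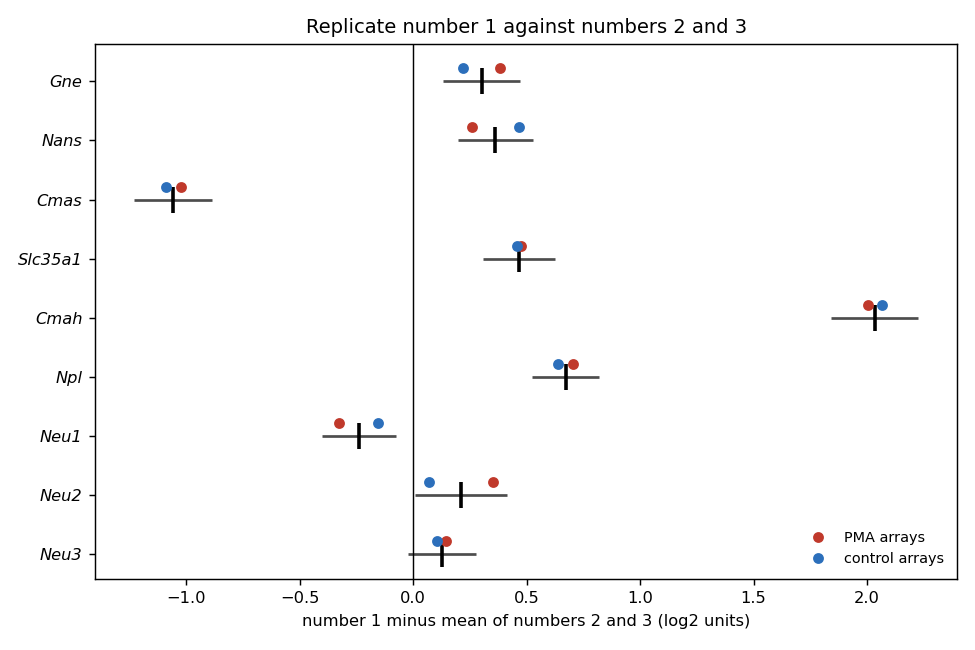
Number 1 minus the mean of numbers 2 and 3 (log2 units) for each gene. The vertical tick and grey line are the limma estimate and its 95% interval with PMA as a term; red and blue points are the same difference within PMA and within control arrays. Cmah lies at 2.03 and Cmas at -1.06, and the PMA and control points share a sign for every gene.

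The 2 number 1 arrays did not overlap with the other 4 for 8 of the 9 genes, Neu2 being the exception. That was so for 55.9% of all probe sets. Numbers 2 and 3 lay close together. Among the 4 arrays the SD ran from 0.043 for Npl to 0.13 for Cmah, and number 2 minus number 3 was at most 0.13 log2 units in size, for Cmas, which was the lower in number 2.

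**Figure D4:**
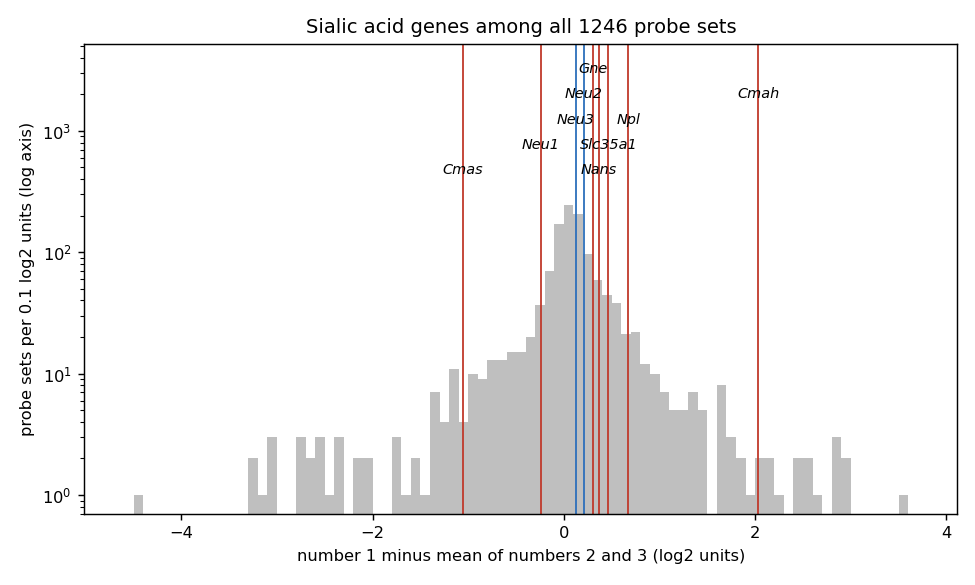
Number of probe sets (log axis) by number 1 minus the mean of numbers 2 and 3, in bins of 0.1 log2 units, grey. Vertical lines mark the 9 genes, red for the 7 that passed limma's test and blue for Neu2 and Neu3. Cmah at 2.03 lies far into the upper tail and Cmas at -1.06 in the lower one, while Neu3 at 0.13 lies in the bulk.

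Genes whose profile over the 6 arrays was nearest to a called gene were found by the root mean square distance between profiles centred on their own means, over 908 other named genes. For Cmah these were B3gnt7, an N-acetylglucosaminyltransferase, at 0.11 log2 units and Ext1, a heparan sulfate polymerase, at 0.11. For Cmas they were Galnt1, a GalNAc-transferase that starts O-glycans, at 0.063 and Slc35f5 at 0.086. Slc35a1 was nearest to Galnt4, another GalNAc-transferase, at 0.018 and to Rbm42 at 0.028. Npl was nearest to Sgsh, a lysosomal sulfamidase, at 0.047 and to Ddx24 at 0.048. Neu1 was nearest to Manba, the lysosomal beta-mannosidase, at 0.035 and to B4galt7 at 0.037. Gne was nearest to Sult1d1 at 0.041 and Riok3 at 0.047, and Nans to Il10rb at 0.033 and Naxe at 0.038. These distances mostly reflect the split between number 1 and the rest, which many genes share.

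Other genes around sialic acid were read in the same fits, and of the 67 measured on 6 lists limma called 0 for PMA. One of them, the lectin Siglech at -0.15, had an unadjusted p under 0.05, against 0.321% of all probe sets. With the block 4 did, 2 sialyltransferases, 1 transporter and 1 lectin, against 3.37% of all probe sets. Between number 1 and the others, 2 of the 3 further genes of sialic acid metabolism measured passed, both upward. Of all probe sets 41.7% passed, and 27.5% passed upward. Renbp, which interconverts N-acetylglucosamine and N-acetylmannosamine, averaged 10.14 in number 1 and 9.47 in the others, a difference of 0.67. Ctsa, the protective protein that lysosomal Neu1 needs, averaged 6.22 in number 1 and 5.93 in the others, a difference of 0.29, the opposite sign to Neu1. Nagk, the GlcNAc kinase, had 0.14 and did not pass. The other 5 of the 8 listed, among them Nanp and Neu4, had no probe set named here.

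In the supply of UDP-GlcNAc, from which Gne draws, 6 of 10 genes passed, against 41.7% of all probe sets, 2 higher and 4 lower in number 1. Gfpt2, an entry enzyme of the hexosamine pathway, averaged 6.38 in number 1 and 7.70 in the others, a difference of -1.32, and its paralog Gfpt1 had -0.36. Uap1, the UDP-GlcNAc pyrophosphorylase, had -0.50 and the related Uap1l1 had 0.77. Gnpda2, a glucosamine phosphate deaminase, had -0.74 and Oga, which removes O-GlcNAc, 0.30. Gne and Nans were higher in number 1 and both Gfpt genes lower.

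Of 12 other members of the transporter family of Slc35a1, 8 passed (66.7%, against 41.7% of all probe sets), 3 higher and 5 lower in number 1. Slc35a3, which carries UDP-GlcNAc, averaged 5.56 in number 1 and 6.78 in the others, a difference of -1.23, and Slc35d1 had -1.14, Slc35d2 -0.87, Slc35b1 -0.65 and Slc35d3 -0.27. Slc35a5 had 0.43, Slc35a4 0.41 and Slc35b4 0.38, near the 0.47 of Slc35a1.

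Of 11 lysosomal glycan-degrading genes 6 passed (54.5%, against 41.7% of all probe sets), 4 higher and 2 lower. Gm2a, the activator protein of ganglioside GM2 breakdown, had 1.61, Galc 0.79, Galns 0.68 and Hexa 0.26. Aga, the aspartylglucosaminidase, averaged 6.95 in number 1 and 9.11 in the others, a difference of -2.16, and Manba had -0.23. Neu1, at -0.24, therefore had the sign of Aga and Manba.

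Of the 19 measured sialyltransferases, which use the CMP-sialic acid that Slc35a1 delivers, 9 passed, all upward. That is 47.4% of the list, near the 41.7% of all probe sets that passed, and 27.5% of all passed upward. The 9 were St6galnac2 at 2.82, St6gal1 at 2.22, St8sia2 at 1.85, St3gal5 at 1.79, St3gal1 at 1.17, St3gal3 at 0.84, St6galnac6 at 0.51, St6galnac5 at 0.28 and St3gal2 at 0.27. St6galnac5 lay below the lower quartile on every array. The calls of the related lists were not repeated under other scalings, so how far the small differences depend on scaling was not tested. Among 12 lectins that bind sialic acid 3 passed (25%), Selp at 0.39 upward and Siglec15 at -0.45 and Sele at -1.13 downward.

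**Figure D5:**
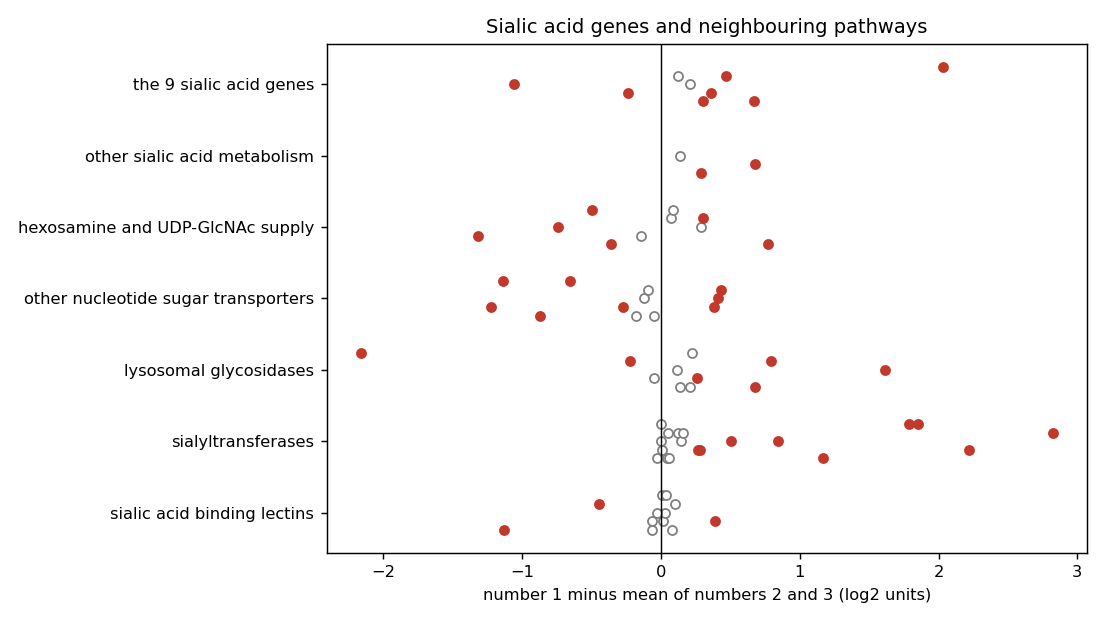
Number 1 minus the mean of numbers 2 and 3 (log2 units) for the 9 sialic acid genes and 6 lists of related genes, 1 point a gene. Filled red points passed limma's test and open points did not. Differences run from -2.16 (Aga) to 2.82 (St6galnac2), and 9 of 19 sialyltransferases (47.4%) passed, against 41.7% of all probe sets.

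Over all probe sets 41.7% passed, 27.5% higher and 14.1% lower in number 1, and some markers of other cells were among them. Of 6 measured endothelial and fibroblast markers of 9 listed, 4 passed (66.7%), all lower in number 1. They were Dcn at -2.31, Pecam1 at -1.37, Vcam1 at -1.31 and Sele at -1.13. Pdgfra (0.20) and Lum (0.074) had higher means there and did not pass. Their summed antilog signal was 630 to 783 in number 1 and 1749 to 2937 in the other arrays, mostly from Dcn and Vcam1. Of 3 measured leukocyte markers of 7 listed, only Mrc1 was called (33.3%), at -2.74, while Siglec1 (0.080) and Cd22 (0.018) did not pass. The summed signal was 124 to 152 in number 1 and 308 to 351 in the others, and Mrc1 accounts for that gap. Of the 2 epithelial markers the dim Sftpa1 passed (50%), higher by 0.52, and Sftpd, at 0.13, did not. The epithelial sums were 58.6 to 60.1 in number 1 and 48.8 to 55.2 in the others. No marker was at 0, since RMA values have no zero, and Cdh5, Col1a1 and Ptprc were not measured here. The part of these markers in the differences of the 9 genes was not tested. The labels name only MLE-15, and RNA from whole cultures does not show which cells a signal came from. Fewer cells of a type and less RNA per cell cannot be told apart in it either.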

How the data were processed

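RNA from 6 samples of MLE-15 cells was measured on Affymetrix arrays. Trizol was used for extraction and biotin-labelled cRNA was prepared, per the labels' protocols. The authors deposited log2 values, which the submitters' processing notes say came from RMA. The sources used here do not give the RMA version, the array, the annotation, any filter or the genome build. RMA brings arrays to a common distribution, which hides a shift of all transcripts, and it compresses differences of dim probe sets. The deposited values did not share a distribution exactly, with upper quartiles of the arrays from 7.86 to 8.05. No further correction was applied in the main comparisons. Precision is limited by there being 6 arrays.

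Probe sets were named through the RefSeq accession in their own name, without versions, in the RefSeq table of GRCm38.p6: 963 of 1246 were named and 283 not. For each gene the probe set with the highest mean stood. Comparisons used limma 3.58.1 in R 4.3.3 (lmFit, eBayes), and SE is the moderated standard error. Benjamini-Hochberg adjustment ran over 1246 probe sets with a threshold of 0.05. The fits were tested on simulated data. The changes put into those data were far larger than the PMA differences of the 9 genes. That test therefore does not bear on differences of such a small size. For PMA the simulated data held no number 1 difference, so they do not bear on the unblocked PMA fit of the real arrays. The text names every one of the 9 genes, each gene of the related lists that passed or else those of largest difference, and the 2 nearest profiles of each called gene. Examples of marker lists are named too, and 1 gene of the related lists is not reported here. The genes, lists and comparisons were chosen with earlier results of these data known, and the number 1 comparison was proposed after number 1 had been seen to stand apart.

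The groups share replicate numbers. Deviations from the group mean correlated across probe sets at 0.956, 0.815 and 0.912 for numbers 1, 2 and 3, all over 0.1, so the blocked fit was run beside the unblocked one. That comes mostly from number 1: the difference of control arrays 2 and 3 and that of PMA arrays 2 and 3 correlated at 0.041. Probe sets are not independent replicates. Alternatives were a filter on low values, other scalings, the mean of a gene's probe sets, a variance trend, arrays left out, and a fit with or without the number or PMA as a term. Upstream sequences are from RefSeq, GRCm38.p6.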

Additional observations from a re-analysis of the deposited data

Results flagged for a closer look

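One result of the interaction test stood out, and it was not one of the 9 genes. The PMA difference of the unnamed probe set uc009kma.1_psr1_at was larger in number 1 than in numbers 2 and 3 by 1.21 log2 units. In number 1 it was 1.24, from 1 pair of arrays with no spread of its own. The spread in this fit came only from numbers 2 and 3. Its values were 5.85, 8.31 and 8.21 in PMA arrays 1, 2 and 3, against 4.61, 8.22 and 8.23 in control arrays 1, 2 and 3. The probe set was named after its value was seen. With an intensity trend in the variance prior no probe set passed this test.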

How the results depend on the processing

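For PMA against control limma called 0 probe sets and 0 of the 9 genes under every alternative run, the replicate block (0 and 0) included, and the block changed no call. The signs of these small differences were not stable. Gne was -0.0059 with array medians subtracted and -0.020 after quantile normalization again, against 0.0065 as reported. With number 1 left out of both groups Gne was -0.048, Neu1 0.018 and Neu2 -0.027. With 1 array left out the numbers are no longer balanced, and the PMA difference ran from -0.61 to 0.75 for Cmah, -0.46 to 0.24 for Cmas, -0.12 to 0.10 for Gne, -0.21 to 0.046 for Nans, -0.12 to 0.069 for Neu1, -0.050 to 0.14 for Neu2, -0.15 to 0.30 for Npl and -0.18 to 0.13 for Slc35a1. Neu3 kept its sign, from 0.027 to 0.12.

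For number 1 against numbers 2 and 3 all 9 genes kept their sign under the alternatives run. Between 5 and 8 were called with 1 array left out, when 403 to 543 probe sets were called, against 519 with all arrays. Cmah, Cmas, Npl and Slc35a1 were called in each tested alternative that kept them; the filter on low values removed Npl and Neu3, and Cmah passed it only through its level in number 1, so that alternative does not bear on Cmah. Set against number 2 alone Neu1 was -0.24 (adjusted p = 0.133), and against number 3 alone Gne was 0.24 (adjusted p = 0.0513) and Neu2 0.25 (adjusted p = 0.0435).

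The interaction called 1 probe set, 0 with a variance trend, and 2 to 18 with 1 array of number 2 or 3 left out, alternatives added after seeing the data that leave 1 residual degree of freedom. It called 0 of the 9 genes in each. Its value then ran from -0.19 to 0.058 for Cmah, -0.034 to 0.17 for Cmas and -0.056 to 0.093 for Slc35a1. The causes of these changes were not tested. Signal over background is unknown for these arrays.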
